A study of Mus musculus with 24 samples.

Results

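The histone deacetylase (HDAC) mRNAs were followed in bulk RNA-Seq libraries of the mouse nucleus accumbens (NAc), a ventral striatal region of reward and mood. The 10 genes *Hdac1*, *Hdac2*, *Hdac3*, *Hdac4*, *Hdac5*, *Hdac6*, *Hdac7*, *Hdac8*, *Hdac9* and *Hdac11* were found by symbol and matched 11 Ensembl gene models of the 38293 in the count table, because *Hdac4* is annotated as 2 models. All 11 models passed the filter on low counts that left 18593 tested genes. The libraries came from C57BL/6J mice labelled as 9 weeks old, in 4 groups of 3: unstressed males (NSM), stressed males (SM), unstressed females (NSF) and stressed females (SF). Stressed mice had undergone subchronic variable stress (SCVS), a run of days on which foot shock, tail suspension and restraint alternate, and all females were in estrus or proestrus. Each library was made from 10 punches pooled from 5 mice, so that the p-values given here measure the spread between pools and not between single mice. The 9 markers of medium spiny neurons, the main neuron of the NAc, summed to between 4370 and 5570 CPM (read counts scaled to library size by edgeR) in every library, with no marker at 0.

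HDACs remove acetyl groups from lysines of histones and of other proteins, which as a rule makes chromatin less permissive for transcription. The class I enzymes (*Hdac1*, *Hdac2*, *Hdac3* and *Hdac8*) are mostly nuclear, and *Hdac1*, *Hdac2* and *Hdac3* act largely inside corepressor complexes. The class IIa proteins (*Hdac4*, *Hdac5*, *Hdac7* and *Hdac9*) have little catalytic activity of their own, bind MEF2 transcription factors, and leave the nucleus once calcium-dependent or salt-inducible kinases phosphorylate them. *Hdac6* is a cytoplasmic deacetylase of tubulin from class IIb, and *Hdac11* is the only class IV enzyme. In the NAc, HDACs are known for their part in the lasting responses to drugs of abuse and to stress.

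Levels were first compared between members per kilobase of exon, since longer mRNAs yield more reads. The length counted every base annotated as exon in any transcript of a model, and the order depends on this scaling. By median CPM without it, *Hdac5* (142.6) stood above *Hdac2* (102.7), and *Hdac9* (16.13) above *Hdac7* (14.73), *Hdac1* (14.35) and *Hdac8* (10.43). *Hdac11* had the highest level at 47.1 ± 1.87 CPM per kilobase (SD over 12 libraries), and *Hdac2*, a catalytic subunit shared by several corepressor complexes, followed at 23.0 ± 1.55. *Hdac3*, a nuclear class I enzyme, had 16.9 ± 0.692 CPM per kilobase and *Hdac5* had 15.7 ± 2.89. These neighbors overlapped over the libraries, whereas *Hdac11* and *Hdac2* did not overlap with the gene that followed them. *Hdac6* came next at 8.45 CPM per kilobase, followed by *Hdac4*, whose short 3′ model had 6.58 and whose longer model had 5.77. The lowest levels were those of *Hdac1* (4.07), *Hdac7* (2.74), *Hdac8* (2.13) and *Hdac9* (1.69 CPM per kilobase). *Hdac6* overlapped with the 3′ model of *Hdac4*, the *Hdac4* models overlapped with each other, and so did *Hdac7* with *Hdac8*, whereas *Hdac5* and *Hdac6*, *Hdac4* and *Hdac1*, *Hdac1* and *Hdac7*, and *Hdac8* and *Hdac9* were apart. *Hdac11* alone made up between 35.8% and 38.2% of the summed per-length level of the 10 genes in each library, with *Hdac4* counted by its longer model.

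**Figure D1:**
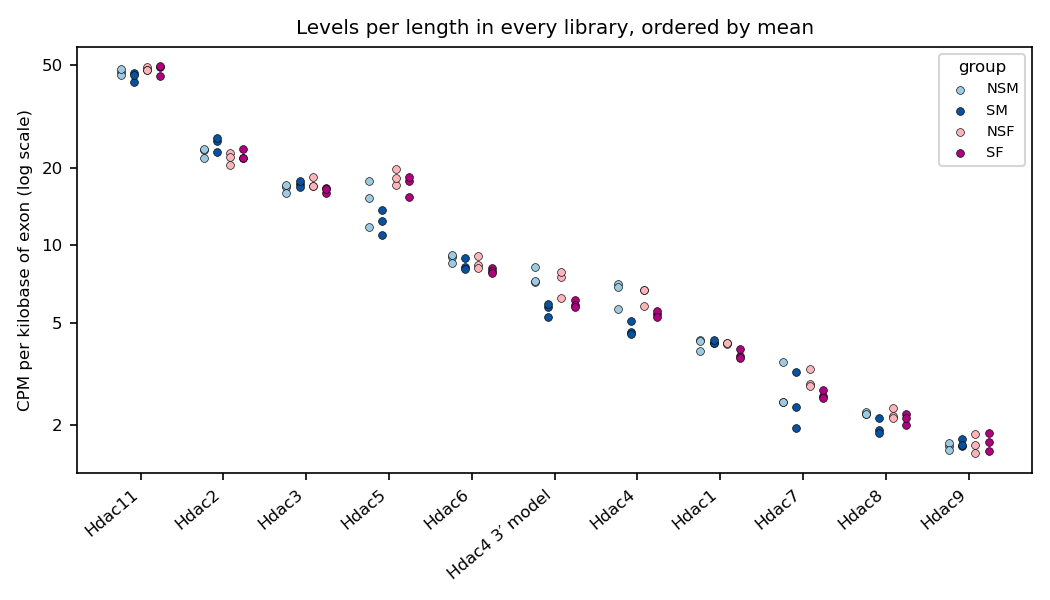
Level of each HDAC gene model in CPM per kilobase of exon on a log axis, with 1 point per library colored by group (3 libraries each). *Hdac11* stood above every other member in all 12 libraries, and *Hdac9* had the lowest mean, 1.69 CPM per kilobase.

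*Hdac4* was the HDAC gene that fell after SCVS in males. Its longer model (ENSMUSG00000026313) lies on the minus strand at chr1:93829334-94044970 of NCBIM37 and has 4091 exonic bases. The other model (ENSMUSG00000073617, the 3′ model) is a single exon of 2392 bases at chr1:93825362-93827753, which starts 1580 bases downstream of the first on the same strand and is annotated as protein coding with a reading frame of 291 bases. The longer model shared 3.23% of its exonic bases with the opposite-strand gene Gm17418, and the library kit does not keep strand.

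The longer *Hdac4* model had 23.2, 28.8 and 28.03 CPM in the NSM libraries and 18.9, 18.5 and 20.7 CPM in the SM libraries. Every stressed male pool was thus below every unstressed one. The level fell by 27.0%, a log2 fold change of -0.45 (SE 0.09, unadjusted p = 0.000135, adjusted p = 0.0177, limma). The 3′ model had 17.2, 19.7 and 17.4 CPM in NSM and 13.7, 12.6 and 14.1 CPM in SM libraries, again without overlap. Its log2 fold change was -0.42 (SE 0.09, unadjusted p = 0.000279, adjusted p = 0.0232, limma). Both models moved by about the same amount: the 3′ model had between 62.2 and 74.1 reads per 100 reads of the longer model in NSM libraries and between 68.1 and 72.8 in SM libraries.

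A gene was called when limma's p before adjustment was below 0.05 and the level differed by 1.3 times or more. By this rule 2 of the 11 HDAC models were called for stress in males, both lower and both of *Hdac4*, against 6.44% of all tested genes (4.08% lower). The models whose NSM and SM libraries did not overlap were 3 of 11 (*Hdac8* and both *Hdac4* models). All were lower in SM, against 11.7% of all genes that were lower without overlap. With the 2 *Hdac4* models summed into 1 feature, the log2 fold change was -0.44 (adjusted p = 0.0122, limma), and the count of called members was then 1 of 10. The longer model remained called in each of the 12 fits without 1 library, with log2 fold changes between -0.55 and -0.38 and adjusted p-values between 0.00698 and 0.0961. The 3′ model fell under the fold threshold without NSM2 (-0.35) and without SM2 (-0.37).

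The other class IIa genes were not called in males. *Hdac5*, which represses MEF2 targets and shuttles out of the nucleus upon neuronal activity, had 104, 134 and 155 CPM in NSM and 109, 96.4 and 121 CPM in SM libraries. The groups overlapped, and the unstressed libraries alone spread over most of that range. The log2 fold change of *Hdac5* was -0.26 (SE 0.12, unadjusted p = 0.0573, adjusted p = 0.249, limma). Over the 12 fits without 1 library it ranged from -0.40 (adjusted p = 0.045, limma) to -0.12 (adjusted p = 0.714, limma). The first of these was without NSM1, the lowest unstressed pool, and the second without NSM3, the highest. *Hdac7*, known for its role in blood vessel integrity, ranged from 13.6 to 19.5 CPM in NSM and from 10.8 to 17.9 in SM libraries. *Hdac9*, known from muscle and from activity-dependent gene repression, stayed between 15.35 and 16.95 CPM in all 6 male libraries. The log2 fold changes of *Hdac7* and *Hdac9* were -0.18 (SE 0.16) and 0.04 (SE 0.08). Over the 5 class IIa models, which count *Hdac4* by both of its models, the median log2 fold change was -0.26, beside -0.01 over all tested genes. Of these models 4 of 5 were negative (52.7% of all genes).

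Class I mRNAs showed no called change in males. *Hdac8*, an X-linked enzyme that deacetylates cohesin, had 10.7, 10.9 and 10.7 CPM in NSM and 9.31, 9.04 and 10.4 CPM in SM libraries. All stressed pools were lower, but the log2 fold change of -0.17 (SE 0.07, unadjusted p = 0.0361, adjusted p = 0.199, limma) was under the fold threshold. *Hdac2* had 105, 106 and 97.8 CPM in NSM and 113, 116 and 103 CPM in SM libraries, and its groups overlapped at a log2 fold change of 0.11 (SE 0.06, unadjusted p = 0.0948). *Hdac1* and *Hdac3* had log2 fold changes of 0.02 (SE 0.06) and 0.06 (SE 0.05). The 95% confidence intervals ran from -0.10 to 0.15 for *Hdac1* and from -0.04 to 0.16 for *Hdac3*. *Hdac6* and *Hdac11* had log2 fold changes of -0.08 (SE 0.05) and -0.06 (SE 0.05), and both overlapped between the groups. On a per-length basis, class IIa made up between 17.4% and 22.4% of the summed HDAC level in NSM libraries and between 16.1% and 18.9% in SM libraries, ranges that overlapped. This sum counts *Hdac4* by its longer model only.

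**Figure D2:**
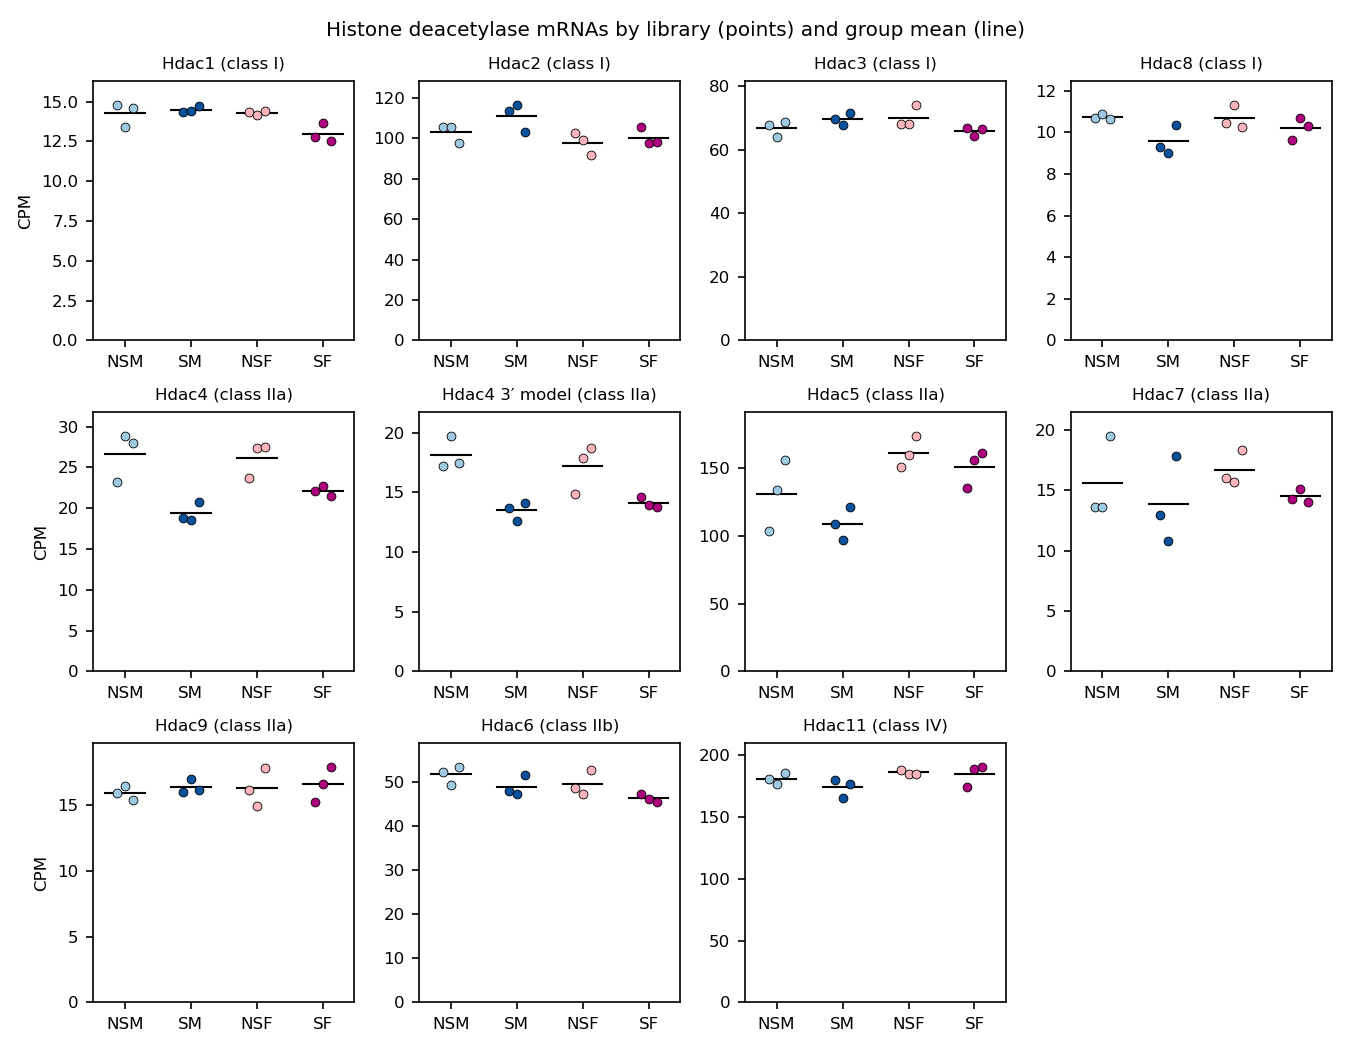
CPM of each HDAC gene model in every library (points) with group means (lines), for unstressed and stressed males (NSM, SM) and females (NSF, SF), axes from 0. The *Hdac4* points of stressed mice lie below those of unstressed mice in both sexes and both models, and the *Hdac5* points of stressed females lie above those of stressed males.

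In females, SCVS produced no called change in an HDAC gene. Here 0 of 11 models were called, against 1.73% of all tested genes. An unadjusted p under 0.05 was found in 3 models by limma, *Hdac1* and both *Hdac4* models (4.23% of all genes). No model had an adjusted p under 0.05, nor had any gene of the table, although without NSF2 61 genes had one and 3.47% were called. edgeR and DESeq2 likewise called 0 members.

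*Hdac4* again had lower values in stressed pools. The longer model had 23.7, 27.4 and 27.5 CPM in NSF and 22.1, 22.7 and 21.5 CPM in SF libraries. The 3′ model had 14.9, 17.9 and 18.7 CPM in NSF and 14.7, 14.0 and 13.8 CPM in SF libraries. In neither model did the groups overlap, although NSF1 was close to the stressed pools in both. The log2 fold changes were -0.24 (SE 0.08, unadjusted p = 0.0122, adjusted p = 0.948, limma) for the longer and -0.28 (SE 0.09, unadjusted p = 0.00597, adjusted p = 0.948, limma) for the 3′ model, both under the fold threshold.

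*Hdac1*, a catalytic partner of *Hdac2* in the same complexes, had 14.3, 14.2 and 14.4 CPM in NSF and 12.8, 13.6 and 12.5 CPM in SF libraries. The groups were apart by little, and the log2 fold change was -0.14 (SE 0.06, unadjusted p = 0.0339, adjusted p = 0.948, limma). *Hdac1* has a processed copy, Gm10093, with between 56 and 90 reads per library, and reads of the gene could have been assigned to it. Stressed and unstressed females did not overlap in 5 of 11 models, all lower after stress (*Hdac1*, *Hdac3*, both *Hdac4* models and *Hdac7*), against 6.41% of all genes that were lower without overlap. The log2 fold changes were -0.09 (SE 0.05) for *Hdac3* and -0.20 (SE 0.16) for *Hdac7*. *Hdac5* had 150, 159 and 173 CPM in NSF and 135, 155 and 161 CPM in SF libraries, which overlapped. Its log2 fold change was -0.10 with a 95% confidence interval from -0.36 to 0.16. *Hdac2*, *Hdac6*, *Hdac8*, *Hdac9* and *Hdac11* had log2 fold changes between -0.09 and 0.04 and overlapped between the female groups.

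**Figure D3:**
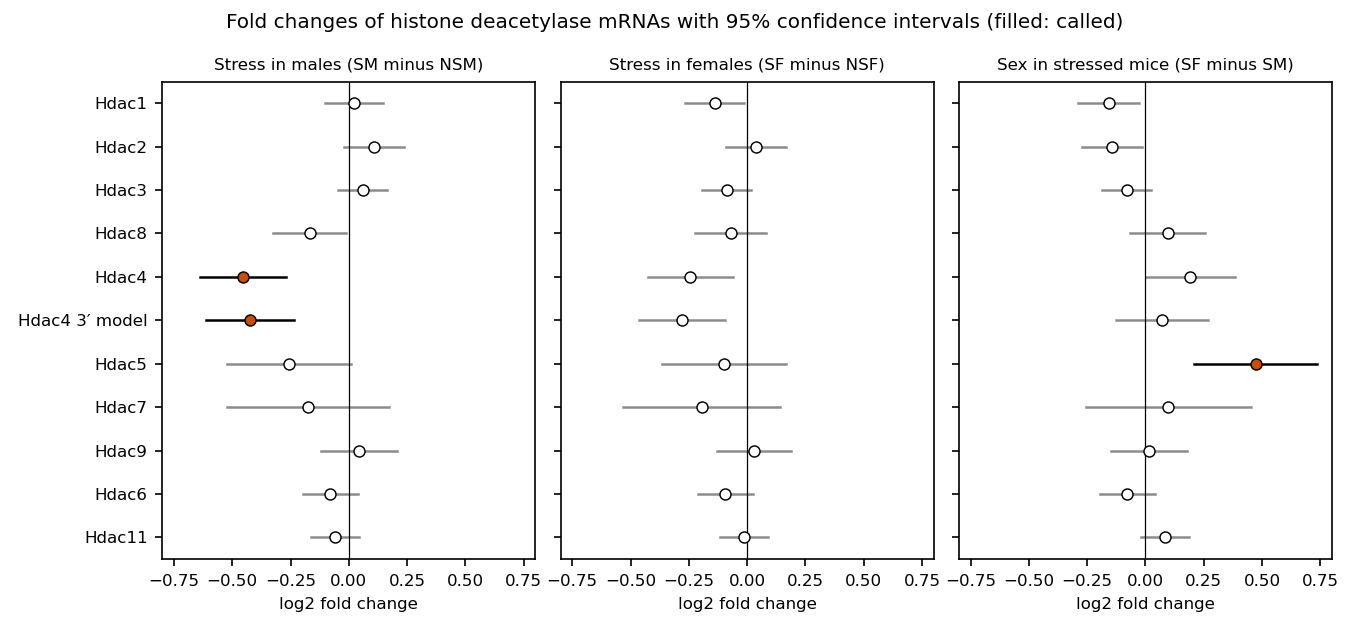
Log2 fold changes of each HDAC gene model with 95% confidence intervals from limma, for stress in males, stress in females and sex in stressed mice, with called models filled. *Hdac4* was called in males (-0.45 and -0.42), its values in females (-0.24 and -0.28) were of the same sign and not called, and *Hdac5* was called between stressed females and stressed males (0.47).

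Whether the stress effect differed between the sexes was tested by the sex-by-stress interaction, the female minus the male effect. No HDAC model was called, 0 of 11 against 4.42% of all tested genes, and none had an unadjusted p under 0.05 by limma, which 9.55% of all genes had (edgeR and DESeq2 called 0 members too). For *Hdac4* the difference was 0.21 on the log2 scale in the longer model (95% confidence interval from -0.05 to 0.47, unadjusted p = 0.104) and 0.14 in the 3′ model (-0.12 to 0.41, unadjusted p = 0.265). The intervals include no difference as well as one of about the size of the male effect. The smallest p-values were those of *Hdac3* (-0.15, unadjusted p = 0.0514) and *Hdac1* (-0.16, unadjusted p = 0.0739), whose estimates were slightly positive in males and negative in females.

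Between the sexes *Hdac5* alone was called, and in stressed mice only. There *Hdac5* was the 1 called member of 11, beside 5.55% of all tested genes. Its 135, 155 and 161 CPM in SF libraries were all above the 109, 96.4 and 121 CPM of SM libraries, a log2 difference of 0.47 (SE 0.12, unadjusted p = 0.0019, adjusted p = 0.0994, limma). The adjusted p missed 0.05, and without SM2, the lowest stressed male pool, the difference of 0.38 fell under the fold threshold. Over all alternatives the adjusted p of *Hdac5* lay between 0.00993 and 0.432, with values under 0.05 from DESeq2 (0.0132), from limma on only the 6 libraries compared (0.021) or without NSM1 (0.024), and with a replicate block. In unstressed mice *Hdac5* had a difference of the same sign, 0.32 (SE 0.12, unadjusted p = 0.0227, adjusted p = 0.242, limma), but NSM3 at 155 CPM lay inside the female range. *Hdac5* (ENSMUSG00000008855) lies at chr11:102055746-102091480 on the minus strand of NCBIM37.

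No HDAC was called between unstressed females and males, 0 of 11 against 5.31% of all genes (1 member and 15.4% of all genes had an unadjusted p under 0.05 by limma, and edgeR and DESeq2 called 0). Among stressed mice *Hdac1* (-0.16, unadjusted p = 0.0204), *Hdac2* (-0.14, unadjusted p = 0.0307) and the longer *Hdac4* model (0.19, unadjusted p = 0.0492) joined *Hdac5* among the 4 models with an unadjusted p under 0.05 (16.4% of all genes) and stayed under the fold threshold. The X-linked members *Hdac6* and *Hdac8* had female minus male log2 differences of -0.07 and 0.00 without stress, and of -0.08 and 0.10 with it, and neither was called in a comparison in which 5.09% (unstressed) or 5.39% (stressed) of X-linked genes were. In total, the libraries of stressed females and males did not overlap in 4 of 11 models, against 20.4% of all genes.

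The libraries held between 41076780 and 60867747 counted reads, and members were measured with at least 370 reads (*Hdac8*) in every library. For *Hdac1* and *Hdac8* the counting error expected at the mean count, an SD of 0.0552 and 0.0642 on the log2 scale, was about as large as the residual SD between pools (0.0504 and 0.0737), whereas for the longer *Hdac4* model it was 0.0424 against 0.115 and for *Hdac5* 0.0176 against 0.189. Markers of other cells moved with male stress. The 10 cortical glutamatergic markers summed to between 126 and 151 CPM in NSM and 201 and 328 CPM in SM libraries, with 2 of 10 called higher. The sums ran from 4270 to 4780 and from 5160 to 5200 CPM for the 5 oligodendrocyte markers. Of these 0 were called, but 4 had an unadjusted and 2 an adjusted p under 0.05 (limma), beside 21.5% and 3.32% of all tested genes. The sums ran from 205 to 225 and from 232 to 259 for the 5 microglial markers (2 of 5 called higher), and from 70.7 to 83.2 and from 92.6 to 103 for the 5 red blood cell markers (4 of 5 called higher). Of 5 endothelial markers 1 was called lower, and of 5 astrocyte markers 0 were called. The 5 choroid plexus markers all had negative log2 fold changes and 0 were called. Their sums ran from 37.6 to 109 CPM in NSM and from 34.5 to 38.6 CPM in SM libraries. None of these markers was at 0 in all libraries. Markers also moved in the other comparisons. The cortical markers summed to between 154 and 476 CPM in NSF and between 176 and 254 CPM in SF libraries. Of the 10, 6 were called higher in unstressed females than in unstressed males, 6 were called lower in the interaction, and 0 were called between stressed mice or for stress in females. Of the 5 red blood cell markers, 4 were called lower in the interaction and 2 higher in unstressed females than males. Between stressed mice, where *Hdac5* was called, 3 of the 5 were called lower in females, with sums of 81.4 to 85.0 CPM in SF libraries. No oligodendrocyte or microglial marker was called in these comparisons. With the cortical covariate the difference of *Hdac5* between stressed mice was 0.50 (adjusted p = 0.101, limma). With the cortical marker level as a covariate, the longer *Hdac4* model had a male log2 fold change of -0.42 (unadjusted p = 0.00227, adjusted p = 0.106, limma) and stayed called, and the 3′ model had -0.37 (unadjusted p = 0.00543) and fell under the fold threshold. The part of the other cell types in these results was not tested, and in bulk tissue fewer cells of a type and less RNA per cell cannot be told apart.

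Genes that work with HDACs were read from lists beside the members. Of 24 partners and kinases of class IIa proteins, 0 were called higher and 2 lower in males, against 6.44% of all tested genes. By limma 11 had an unadjusted p under 0.05 (21.5% of all genes) and 5 an adjusted one (3.32%). Of the 24, 14 had positive and 10 negative log2 fold changes. Among the positive ones were *Mef2c* (0.24, adjusted p = 0.0361, limma) and *Camk1d* (0.31, adjusted p = 0.0331, limma), both under the fold threshold. *Sik2*, a salt-inducible kinase that phosphorylates class IIa HDACs, had 56.8, 59.7 and 55.4 CPM in NSM and 39.4, 40.2 and 39.7 CPM in SM libraries. The groups were far apart for their spread, at a log2 fold change of -0.53 (SE 0.08, unadjusted p = 1.04e-05, adjusted p = 0.00544, limma). In the 12 alternatives that did not leave out a single library, *Sik2* stayed called, although the call rule without a fold threshold could not lose a call. Its log2 fold change there lay between -0.58 and -0.38, with adjusted p-values up to 0.0567. *Dnajb5*, a cochaperone that binds *Hdac4* in the nucleus, had 130, 137 and 136 CPM in NSM and 98.5, 100.3 and 110.0 CPM in SM libraries, at a log2 fold change of -0.38 (SE 0.08, adjusted p = 0.0211, limma) that lay just past the fold threshold and fell under it in 7 of the 12 fits without 1 library (NSM2, NSM3, SM1, SM2, NSF1, NSF3 or SF2, -0.38 to -0.35) and with DESeq2 or its size factors (both -0.37). The median of this list was 0.05. None of 7 sirtuins and none of 13 histone acetyltransferases was called in males, with medians of -0.07 and -0.10. Of the acetyltransferases 5 had an unadjusted p under 0.05 by limma, which 21.5% of all tested genes had.

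In females 0 genes of these 3 lists were called, and 0 of 25 genes of corepressor complexes. The test of the difference between the sexes called *Sik2* (0.48, adjusted p = 0.167), *Camk1g*, a calcium-dependent kinase (0.48, adjusted p = 0.332), and *Rcor2*, a CoREST subunit (-0.56, adjusted p = 0.472), none with an adjusted p under 0.05 (limma). With the cortical covariate none of the 3 stayed called, at 0.27, 0.13 and -0.09. *Rcor2* was called higher in unstressed females than in unstressed males (0.46, adjusted p = 0.193, limma), at means of 6.49 and 4.60 CPM, and had 0.10 with the cortical covariate and 0.32 without NSF3, neither of them called. Its interaction call was also lost without NSM1 (-0.52), SM3 (-0.41), NSF3 (-0.43) or SF1 (-0.46). No sirtuin and no acetyltransferase was called between the sexes or in the interaction.

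**Figure D4:**
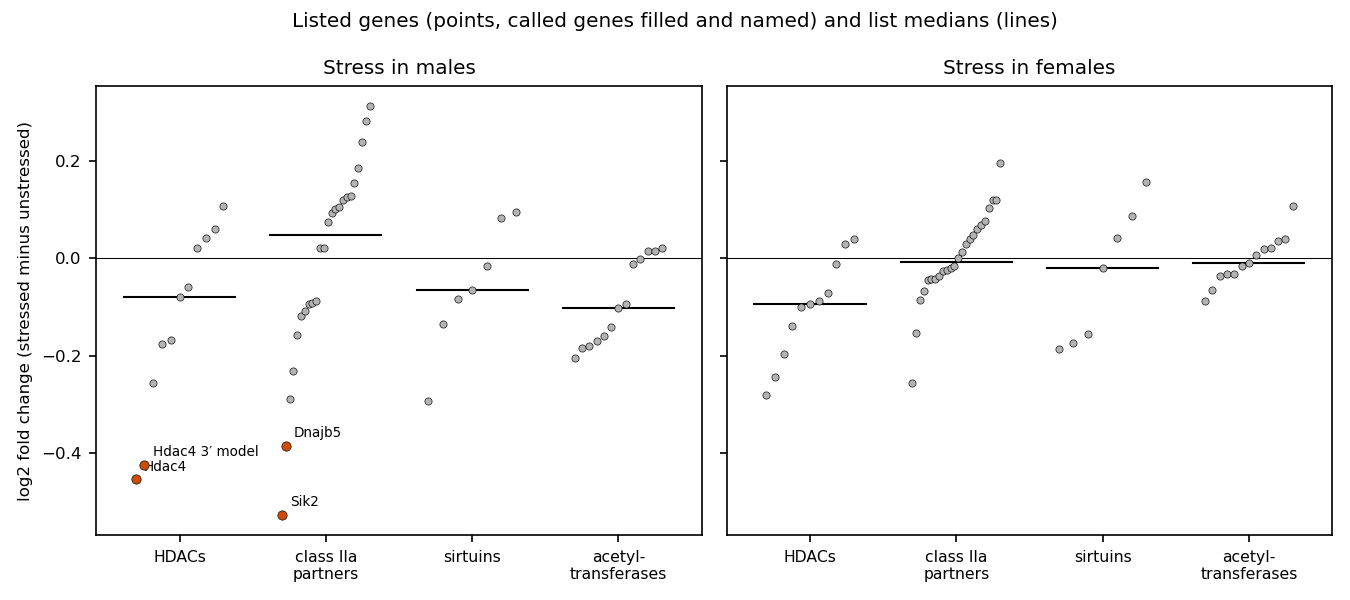
Log2 fold changes after stress in males and in females of the HDAC models and of 3 lists of genes that act with them, each point a gene and each line a list median, with called genes filled and named. *Hdac4*, *Sik2* and *Dnajb5* were called lower in stressed than in unstressed males, and no gene of these lists was called in females.

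The genes whose log2 CPM tracked the longer *Hdac4* model most closely over the 12 libraries were *Arhgef7* (Pearson r = 0.95), *Mcf2l* (r = 0.93) and *Esyt3* (r = 0.93). For the 3′ model they were *Creld2* (r = 0.94), an unnamed gene (ENSMUSG00000097443, r = 0.93) and the longer *Hdac4* model itself (r = 0.92). These values describe the libraries, which share group, depth and tissue composition within a pool.

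Small RNA libraries of the same pools were read for 14 miR precursors chosen because their miRs are known to target HDAC mRNAs, most of them *Hdac4*. Earlier results of these data were known when the precursors were chosen. Of these, 12 were tested and 2 (mir-1a-2 and mir-2861) were at 0 reads. The small RNA libraries held between 5086554 and 13522287 reads. miR-206 and miR-1a share a seed, bases 2 to 8, and in muscle both are classical repressors of *Hdac4*. The mature miRs of 3 of the 4 precursors called in males, all but miR-1a-3p, are shown with the seed in capitals, as given by RefSeq for GRCm38.p6, because the match of each seed was sought in the 3′ model of *Hdac4* (for miR-22-3p and miR-29a-3p as well).
miR-206-3p: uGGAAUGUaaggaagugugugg
miR-365-3p: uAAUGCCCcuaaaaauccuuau
miR-155-5p: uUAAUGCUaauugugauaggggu

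The 3′ model of *Hdac4* held seed matches to all of these miRs on its own strand, which are given in capitals in 30 bases of NCBIM37, minus strand. The match of miR-206-3p, ACATTCC, occurred 1 time, at chr1:93826625-93826654 within the annotated reading frame, and 15.8% of 10993 mRNA ends of the same length (2392 bases) held it. The match of miR-365-3p, GGGCATT, occurred 2 times in the annotated UTR, at chr1:93826548-93826577 and chr1:93826125-93826154. At least 1 such match was held by 12.3% of the mRNA ends and at least as many as here by 0.882%. AGCATTA, the match of miR-155-5p, occurred 1 time at chr1:93827116-93827145 and in 11.5% of mRNA ends. Of the other miRs searched, miR-22-3p had 1 match (GGCAGCT, in 27.1% of mRNA ends) and miR-29a-3p had 0 (TGGTGCT, in 24.4%). The mRNA end of the longer *Hdac4* model held 2 matches of miR-29a-3p and 0 of the other miRs. Ends of other members held 1 match each for miR-365-3p (*Hdac5*, *Hdac11*), miR-155-5p (*Hdac2*, *Hdac9*), miR-22-3p (*Hdac5*, *Hdac6*) and miR-29a-3p (*Hdac2*, *Hdac5*, *Hdac6*). A match of letters is no evidence of binding.
miR-206-3p match: ctttcctcagaACATTCCttcttcactggt
miR-365-3p match 1: atgtattttatGGGCATTgatacatatata
miR-365-3p match 2: aagctggctagGGGCATTttcttttgtttt
miR-155-5p match: tgtgagctgaaAGCATTAcctaccatatag

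Of the 12 tested miRs, 4 were called in males, 3 higher and 1 lower, against 5.2% of the 500 tested miRs. Because earlier results of these data were known when the list was made, this comparison is not independent of them. The same holds for females and for the interaction, so these shares cannot show that listed miRs were called more often than others. mir-206 had 67.8, 73.4 and 48.0 CPM in NSM and 165, 139 and 111 CPM in SM small RNA libraries, without overlap. Its log2 fold change was 1.14 (SE 0.22, adjusted p = 0.0676, limma). mir-1a-1 rose from a mean of 306 to 411 CPM (0.43, SE 0.11, adjusted p = 0.134, limma) and mir-365-2 from 16.9 to 23.98 CPM (0.49, SE 0.16, adjusted p = 0.181, limma). The other mir-365 precursor, mir-365-1, was not called (0.26, unadjusted p = 0.0929, limma). mir-155 fell from 5.17 to 3.62 CPM, a level of few reads, at -0.52 (SE 0.22, adjusted p = 0.332, limma). In none of the 4 was the adjusted p under 0.05. The call of mir-1a-1 was lost without NSM3 (0.35) or SM1 (0.33), that of mir-365-2 without SM1 (0.38), and that of mir-155 without NSM1 (-0.29), NSM2 (-0.54), SM2 (-0.47) or SM3 (-0.51).

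In females mir-206 was the 1 called miR of the 12, against 4.8% of all miRs, and it was lower. It had 188, 260.4 and 162 CPM in NSF and 97.6, 147 and 146 CPM in SF libraries, at a log2 fold change of -0.65 (SE 0.20, adjusted p = 0.344, limma). *Hdac4* had its lower values after stress in both sexes, called in males only, while mir-206 was higher after stress in males and lower in females. A link between the miR and the mRNA was not tested. The test of the difference between the sexes called mir-206 (-1.80, adjusted p = 0.0131, limma), mir-1a-1 and mir-365-2, 3 of the 12, against 6.8% of all miRs. mir-22, mir-140, the mir-29 precursors, mir-365-1 and mir-449a were not called in either sex.

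**Figure D5:**
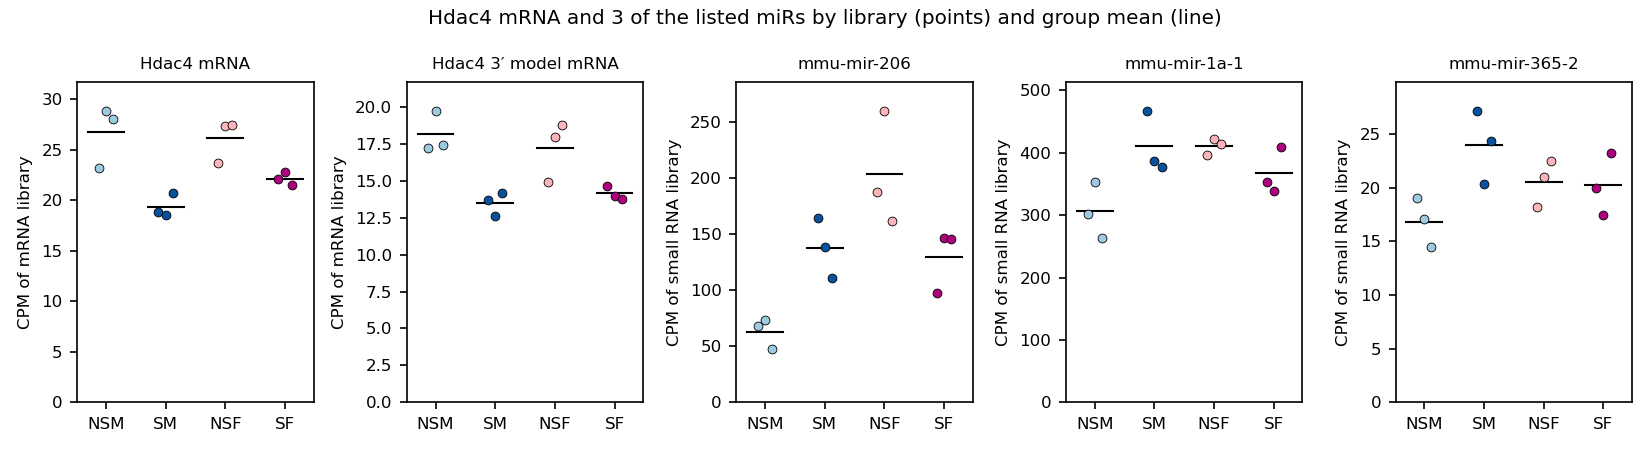
CPM of the *Hdac4* models in mRNA libraries and of mir-206, mir-1a-1 and mir-365-2 in small RNA libraries, for every library (points) and group (lines, means), axes from 0. *Hdac4* was lower after stress in both sexes but called in males only. mir-206 was higher after stress in males (63.1 to 138 CPM) and lower in females (203.5 to 130.0 CPM).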

How the data were processed

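The authors aligned paired mRNA reads with TopHat2 to NCBIM37 and counted them with HTSeq, and aligned small RNA reads with Bowtie. The deposited values are raw read counts per Ensembl gene and per miR precursor. The strand setting is not given in the sources used here. Symbols, coordinates and exon lengths came from GENCODE for NCBIM37.

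The filter kept genes above 5 reads in 80% or more of any group's libraries, which were fitted in R 4.3.3 with limma 3.58.1 (voom, TMM factors from edgeR 4.0.16, one mean per group, two-sided tests), and Benjamini-Hochberg adjustment ran over all tested genes or miRs. A call needed p below 0.05 before adjustment and a change of 1.3 times or more. CPM were TMM-scaled. Also tried were DESeq2 1.42.0, edgeR's quasi-likelihood test, other scalings, filters, call rules and fits, and leaving out each library. No 2 libraries of a group agreed within sampling noise. Steps were tested on simulated data. Plots used matplotlib. Members and lists were chosen with earlier results of these data known. All HDAC models and every called listed gene (at most 6 per list) were named, except 1 called gene of the corepressor list, which is not reported here, with 3 genes of the most similar pattern for each called model.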

Additional observations from a re-analysis of the deposited data

Results flagged for a closer look

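The stress effects of 3 listed miRs differed between the sexes by the interaction term (female minus male effect, limma), which called 6.8% of the 500 tested miRs. The list was made with earlier results of these data known, so the share of listed miRs called is not an independent count. For mir-206 the difference was -1.80 on the log2 scale (SE 0.30, adjusted p = 0.0131), and it stayed called in every fit without 1 library (-1.97 to -1.59). For mir-1a-1 it was -0.59 (SE 0.16, adjusted p = 0.294), called in each such fit (-0.70 to -0.50). For mir-365-2 it was -0.50 (SE 0.22, adjusted p = 0.542), and the call was lost in 8 of the 12 fits without 1 library (NSM2, NSM3, SM1, SM3, NSF2, NSF3, SF1 or SF2, range -0.64 to -0.40 over all 12) and when libraries were scaled by size only (-0.46). The other mir-365 precursor, mir-365-1, had -0.25 (unadjusted p = 0.229, limma) and was not called, except without SF3 (-0.43). No HDAC mRNA was called by the same test. Outlying libraries were not looked for, since groups held only 3.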

How the results depend on the processing

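Of 2033 log2 fold changes under other fits or call rules, 1971 kept their side of the call rule. These include 89 sign changes of estimates within 1 SE of 0 that were never called, and the others kept their direction. Of the rest of the 2033, 49 lost a call, 11 gained one, and 2 changed sign from at least 1 SE off 0. *Hdac4* (longer model) stayed called in males in all 12 other alternatives as well (-0.50 to -0.42). The other call rules among these kept the main fit, and the rule without a fold threshold could not lose a call. Among estimates at least 1 SE off 0, the sign changed for *Hdac2* between unstressed sexes with the cortical covariate (1e-04) and for *Hdac7* in males without 1 library (range -0.38 to 0.0041, positive without SM2). Members called for stress in males were 1 with the *Hdac4* models summed, 1 with the cortical covariate, and between 1 and 3 without 1 library. Without a fold threshold 3 members were called for stress in females, 1 for sex in unstressed mice and 4 for sex in stressed mice, and by adjusted p 0 for sex in stressed mice. Leaving out 1 library gave between 0 and 1 for both sex comparisons (1 in unstressed mice without NSM3, where *Hdac5* had 0.45), and between 2 and 4 listed miRs in males (2 without SM1). In females the share of all genes called, 1.73%, was 1.04% with DESeq2, 3.09% with the filter of at least 1 read in any library, and 3.47% without NSF2. The library numbers recur in all groups, but deviations of same-numbered libraries correlated at 0.000725 to 0.316 in males, 0.0756 to 0.107 in females, -0.0266 to 0.135 between unstressed sexes and -0.0232 to 0.0147 between stressed sexes, so in none of these did every pair exceed 0.1, and the numbers were not taken to pair the samples. With a replicate block *Hdac4* had -0.46 in males, and members called were 2, 0, 0, 0 and 1 for stress in males, stress in females, the interaction, sex in unstressed and sex in stressed mice, while genes of the table with an adjusted p under 0.05 went from 53 to 562 and from 27 to 837 in the last 2. The partner genes and the miR interaction were added after seeing the data. The cause of these changes was not tested. With 3 pools per group the interaction of *Hdac7* had a confidence interval from -0.50 to 0.46, and for *Hdac1* and *Hdac8* counting error was about as large as the spread of pools.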

Other observations

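*Hdac2* and *Hdac5* varied in opposite directions over the 12 libraries (Pearson r = -0.90, and -0.78 for deviations from group means), as did *Hdac2* and *Hdac7* (r = -0.79, and -0.84 within groups). The points share library depth and tissue composition, and no test was made. *Hdac7* and *Hdac5* had the largest residual SDs of the members on the log2 scale, 0.245 and 0.19, against a median of 0.12 over all tested genes, and those of *Hdac11*, *Hdac1* and *Hdac3* were all near 0.05.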
